A study of Mus musculus with 2 samples.

Results

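Collagen chain genes encode the alpha chains that wind around each other into collagen molecules, and they were taken here as the table rows whose ID is Col, digits, the letter a, digits and nothing more. There were 44 such genes of 20003 listed, covering 27 collagen types. By class, 11 encode fibrillar chains, 6 the type IV chains of basement membranes and 27 the other types. RNA was sequenced on an Illumina HiSeq2500 from 2 libraries of cells labelled RAW 264.7, a mouse macrophage line, grown with 10% FBS. The library M2+GANT61 came from cells given 10 µM GANT61, an inhibitor of the GLI factors, through which Hedgehog signals reach their target genes. The library M2+DMSO was made from solvent-treated cells. Cells of either library had M-CSF at 20 ng/mL and, 4 h after GANT61 or DMSO, IL-4 at 10 ng/mL, which steers macrophages to the M2 state. For IL-4, the labels name both 15 min and 24 h.

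Fibrillar collagens (types I, II, III, V, XI, XXIV and XXVII) are the tensile fibres of connective tissue and are made mainly by fibroblasts. Type IV collagen forms the sheet-like network under epithelium and endothelium and around fat and muscle cells. The other types include the microfibrils of type VI, the anchoring fibrils of type VII that tie epidermis to dermis, the fibril-associated collagens with interrupted triple helices (FACITs), transmembrane collagens and the short-chain networks of types VIII and X. Macrophages are known mainly for degrading and taking up collagen, while their synthesis of type VI and type VIII chains has also been described.

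The libraries held 57705874 reads (M2+GANT61) and 61632784 reads (M2+DMSO). As each group was a single library, nothing below has a replicate check or a test, and the 95% intervals below cover counting error only. Scaling used TMM factors (trimmed mean of M values), and each ratio is that of M2+GANT61 to M2+DMSO. A gene was called higher or lower where its ratio was at least 1.5, or at most the inverse, its interval excluded 1 and its mean level reached 1 CPM (counts per 1e6 reads, scaled). Single genes are compared with each other only as RPKM (reads per kilobase of gene model and per 1e6 reads), as deposited by the authors. Shares of reads and summed CPM are not corrected for gene length. All 12 macrophage markers were present in both libraries, with summed levels of 9135 CPM in M2+GANT61 and 3783 CPM in M2+DMSO, and all 12 were called higher. Of 68 markers in lists for 8 other cell types, 53 were at 10 CPM or more in each library. Cartilage had little sign, with 5 of its 6 markers below 1 CPM. A pure macrophage line should lack the defining transcripts of fibroblasts, epithelium, endothelium and adipocytes, so the values go against the label, and which cells gave the collagen reads cannot be told from these libraries. In such bulk RNA, fewer cells of a type and less RNA per cell cannot be told apart.

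Collagen transcripts were abundant in either library. Together the 44 genes took 1.25% of the reads of M2+GANT61 and 1.14% of those of M2+DMSO. Most of this was type I and type III, whose 3 genes made up 58.1% of the collagen reads in M2+GANT61 and 58.7% in M2+DMSO. By summed RPKM, which takes gene length into account, they were at 1049 of 1679 in M2+GANT61 and 942 of 1534 in M2+DMSO. The small difference between the libraries in this share thus depends on the measure. Col3a1 ranked 117th by RPKM among all listed genes in M2+GANT61 and 129th in M2+DMSO, while Col22a1 was without a read in either library. The levels therefore spanned the range from highly expressed genes to single reads.

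**Figure D1:**
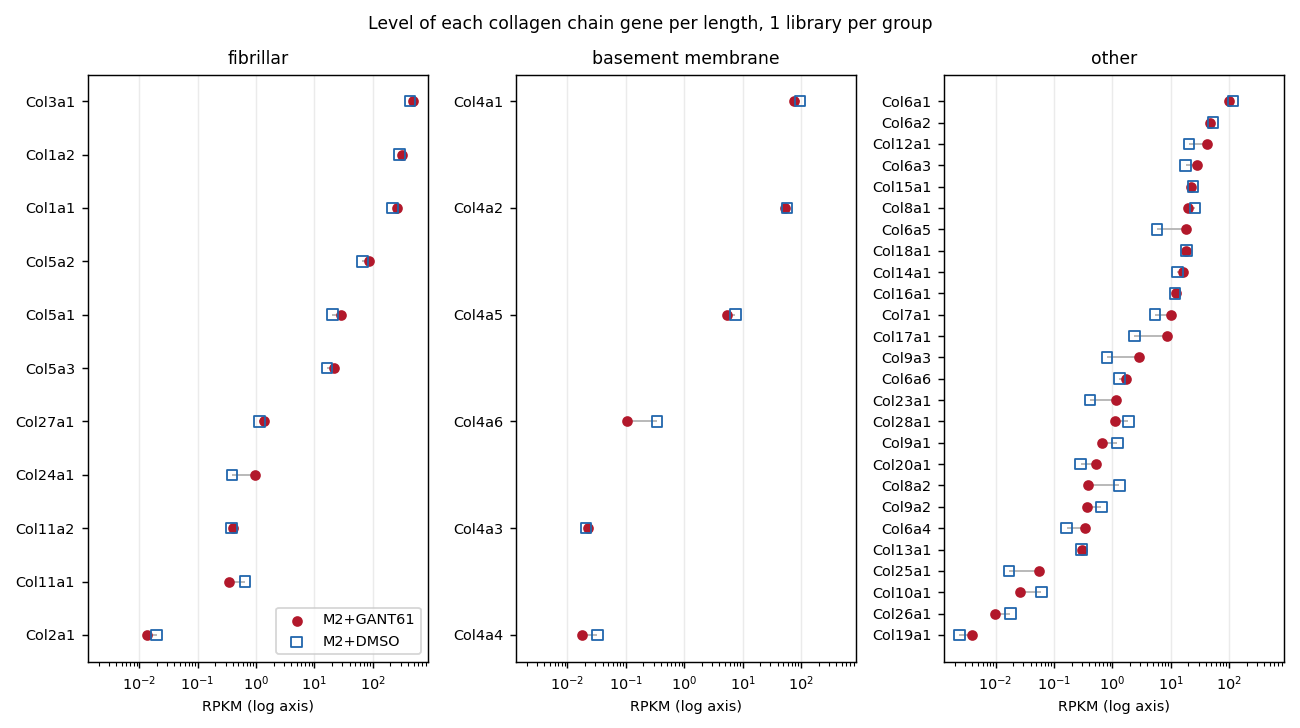
Level of each collagen chain gene in RPKM (log axis), as deposited, by class. Filled circles are the M2+GANT61 library and open squares the M2+DMSO library, with 1 library per group and no error bars. Col3a1 leads at 482 and 434 RPKM, the type IV chains fall into an abundant pair and 4 scarcer chains, and Col22a1, listed at 0, is not drawn.

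Of the 44 members, 36 had a mean of at least 1 CPM. Of these 36, 10 were called higher and 6 lower in M2+GANT61, or 27.8% and 16.7%, against backgrounds of 14.1% higher and 10.3% lower among the 13939 genes considered. The remaining 20 met neither call. Of the 6 lower members, 5 averaged under 5 CPM, and of the 27 members at or above that level 8 were higher and 1 lower, against backgrounds of 11.7% and 8.45%. Past a ratio of 2, 7 members were higher and 2 lower, against backgrounds of 6.97% and 4.27%. The median log2 ratio was 0.14 over the 36 members and -0.01 over all genes considered. Most calls were in the other types, with 9 higher and 4 lower of 22, or 40.9% and 18.2%. Fibrillar chains had 1 higher and 1 lower of 10, near the backgrounds of 14.1% and 10.3%. Type IV chains had 0 higher and 1 lower of 4, too few genes to set against a background. In the order fibrillar, type IV and other types, the medians follow. The class medians were 0.26, -0.40 and 0.20 on the log2 scale. Nearest to the thresholds, Col6a3 at a ratio of 1.61 was inside and Col5a1 at 1.39 outside on the higher side, and Col28a1 at 0.586 was inside and Col4a5 at 0.711 outside on the lower side.

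**Figure D2:**
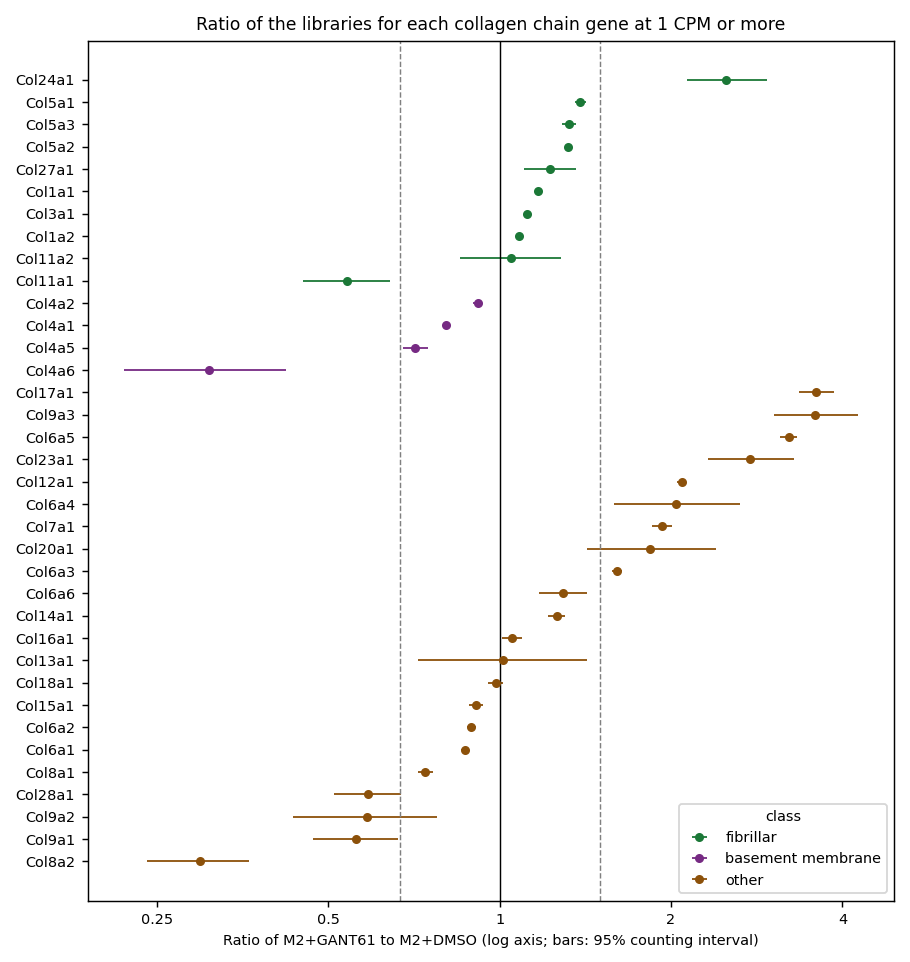
Ratio of M2+GANT61 to M2+DMSO (log axis) for the 36 collagen chain genes whose mean reached 1 CPM, by class, with 95% counting intervals. Dashed lines mark a ratio of 1.5 and its inverse. The abundant fibrillar chains sit between 1.08 and 1.39, all 4 type IV chains lie below 1, and the other types spread from 0.297 to 3.60.

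The fibrillar class had a summed ratio a little above 1, and so did each of its abundant members. Its summed reads were 0.846% of M2+GANT61 (exact 95% interval 0.844% to 0.849%) and 0.762% of M2+DMSO (0.760% to 0.764%), a scaled ratio of 1.15 (1.14 to 1.15). Col3a1, the homotrimeric type III chain (chr1:45311538-45349706, plus strand, mm10), was at 482 RPKM in M2+GANT61 and 434 RPKM in M2+DMSO, from 192889 and 190505 reads, a ratio of 1.12 (1.11 to 1.12). Col1a1, whose chain is normally present in 2 copies per type I molecule (chr11:94936224-94953042, plus strand), was at 256 and 219.6 RPKM in M2+GANT61 and M2+DMSO, a ratio of 1.17 (1.16 to 1.18). Col1a2, the other type I chain (chr6:4504814-4541544, plus strand), was at 311 RPKM in M2+GANT61 and 289 RPKM in M2+DMSO, a ratio of 1.08 (1.07 to 1.09). All 3 fell short of the rule. The level of Col1a1 relative to Col1a2 was 0.822 in M2+GANT61 (0.815 to 0.829) and 0.761 in M2+DMSO (0.755 to 0.767). By RPKM the alpha 2 transcript was thus the more abundant in each library. This order rests on the authors' gene lengths, which are not given. Merged annotated exons span 6563 bases for Col1a1 and 12426 for Col1a2, so which chain was more abundant is not settled.

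Type V collagen, a minor component inside type I fibrils that limits their diameter, had larger ratios than types I and III. Col5a1, Col5a2 and Col5a3 had ratios of 1.39 (1.36 to 1.42), 1.32 (1.30 to 1.34) and 1.32 (1.28 to 1.36), all short of 1.5. Col5a2 was at 87.2 RPKM in M2+GANT61 and 66.4 RPKM in M2+DMSO, the highest of the 3 in either library. The intervals of the type V chains did not overlap those of Col1a1, Col1a2 or Col3a1, which compares counts within these libraries. Type V therefore made up 9.43% of the collagen reads in M2+GANT61 and 7.98% in M2+DMSO. The 6 fibrillar genes averaging at least 100 CPM all had ratios above 1, between 1.08 and 1.39.

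The fibrillar genes that met the rule were both scarce. Col24a1, which encodes a fibrillar chain known from developing bone, had 496 reads in M2+GANT61 and 218 in M2+DMSO, at 0.965 and 0.387 RPKM, a ratio of 2.50 (2.13 to 2.95). Col11a1, a chain of cartilage fibrils, had 193 reads in M2+GANT61 and 395 in M2+DMSO, at 0.348 and 0.650 RPKM, a ratio of 0.539 (0.451 to 0.641). Its partner Col11a2 had 188 and 198 reads and a ratio of 1.05 (0.852 to 1.28), so the type XI chains did not move together. Col27a1 had a ratio of 1.23 (1.10 to 1.36). Col2a1, the main cartilage collagen, had 5 reads in M2+GANT61 and 8 in M2+DMSO, below the floor. Of 6 cartilage markers, 5 were below the floor, with 1 to 48 reads in M2+GANT61 and 0 to 7 in M2+DMSO. The other was Sox9, also expressed in epithelium, with 3110 reads in M2+GANT61 and 3580 in M2+DMSO. Of those below the floor, the cartilage gene Cnmd had 48 and 7 reads in M2+GANT61 and M2+DMSO, and Acan, the cartilage proteoglycan aggrecan, had 1 and 0.

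Fibroblast markers stand beside the fibrillar class. Of 10, 0 were called higher and 3 lower in M2+GANT61, with a median log2 ratio of 0.20 and summed levels of 1504 CPM in M2+GANT61 and 2179 CPM in M2+DMSO. Among all genes considered, 14.1% were called higher and 10.3% lower, and nothing is read from 3 calls of 10. None of the fibroblast markers was at 0 in either library. The lower members were Dpt, a dermal matrix protein, at a ratio of 0.489 (0.475 to 0.504), Dpep1 at 0.557 (0.506 to 0.612) and Gsn, an abundant actin-severing protein, at 0.567 (0.560 to 0.573). The other 7 ran from 0.827 for Clec3b to 1.32 for the receptor gene Pdgfrb. The summed level is thus opposite in direction to the median, and Gsn alone was at 825 CPM in M2+GANT61 and 1456 CPM in M2+DMSO. The part of these markers in the fibrillar values was not tested.

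**Figure D3:**
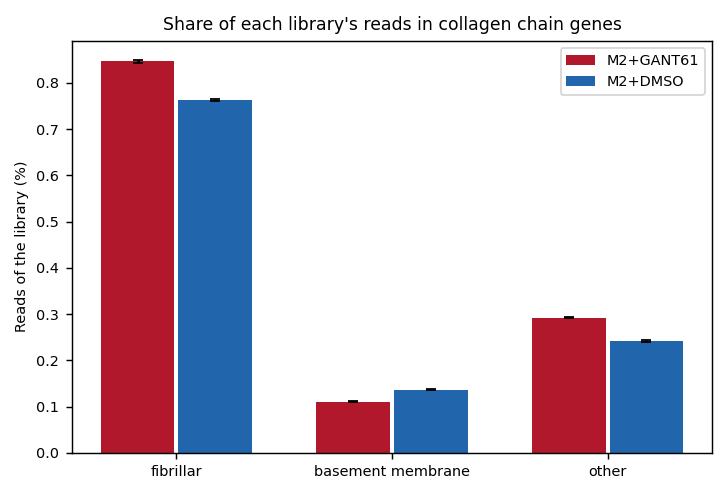
Share of each library's reads (%) that fell in collagen chain genes, by class, with M2+GANT61 on the left of each pair and M2+DMSO on the right. Error bars are exact 95% binomial intervals for counting error. The fibrillar share is 0.846% and 0.762%, the type IV share 0.111% and 0.136%, and the share of the other types 0.292% and 0.242%.

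Type IV was, of the 3 classes, the one with a summed ratio below 1. Its summed share was 0.111% of the reads of M2+GANT61 and 0.136% of those of M2+DMSO, a scaled ratio of 0.838 (0.830 to 0.847). Its part of all collagen reads was 8.85% in M2+GANT61 and 11.9% in M2+DMSO. Of the 4 chains at or above the floor, 0 had a ratio above 1, whereas 49.0% of all genes considered did.

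The 6 type IV genes lie in 3 head-to-head pairs, and the size of the difference varied within each measured pair. Col4a1 and Col4a2 encode the chains of the common network and lie on chromosome 8 with starts that share 22 bases. Col4a1 (chr8:11198423-11312826, minus strand) was at 76.9 RPKM in M2+GANT61 and 95.9 RPKM in M2+DMSO, from 36708 and 50182 reads, a ratio of 0.806 (0.795 to 0.817). Col4a2 (chr8:11312805-11449287, plus strand) was at 52.9 RPKM in M2+GANT61 and 58.0 RPKM in M2+DMSO, from 24526 and 29545 reads, a ratio of 0.914 (0.899 to 0.930). Their intervals did not overlap, and neither met the rule. The level of Col4a1 relative to Col4a2 was 1.46 in M2+GANT61 and 1.65 in M2+DMSO.

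Col4a5 and Col4a6, whose chains join in the basement membranes of skin, smooth muscle and other tissues, lie on the X chromosome with starts 1308 bases apart. Col4a5 (chrX:141475385-141689234, plus strand) was at 5.34 RPKM in M2+GANT61 and 7.54 RPKM in M2+DMSO, from 2492 and 3860 reads, a ratio of 0.711 (0.676 to 0.748). Col4a6 (chrX:141165403-141474076, minus strand) had 50 reads in M2+GANT61 and 180 in M2+DMSO, at 0.105 and 0.343 RPKM, a ratio of 0.308 (0.219 to 0.421), and was the type IV gene called lower. Col4a5 was thus 51.0 times the level of Col4a6 in M2+GANT61 and 22.0 times in M2+DMSO. Col4a3 and Col4a4, the chains of mature glomerular basement membrane, start 71 bases apart on chromosome 1 and were below the floor. Col4a3 had 14 reads in either library, and Col4a4 had 10 in M2+GANT61 and 20 in M2+DMSO.

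Markers of cell types that make basement membrane differed in direction. Of the endothelial markers, 0 of 10 were called higher and 3 lower, at a median log2 ratio of -0.42, with summed levels of 589 CPM in M2+GANT61 and 706 CPM in M2+DMSO. For pericytes and smooth muscle, 1 of 9 was higher and 3 were lower, at a median of -0.44 and sums of 514 CPM in M2+GANT61 and 635 CPM in M2+DMSO. All 10 adipocyte markers were called lower, at a median of -2.61 and sums of 729.5 CPM in M2+GANT61 and 4296 CPM in M2+DMSO. Luminal epithelium markers had 0 of 8 higher and 2 lower, at a median of -0.33 and sums of 2288 CPM in M2+GANT61 and 3041 CPM in M2+DMSO. Basal and stratified epithelium went the other way, with 7 of 9 higher, a median of 1.03 and sums of 1682 CPM in M2+GANT61 and 994 CPM in M2+DMSO. The shares over all genes considered were 14.1% higher and 10.3% lower, and nothing is read from counts of 1 to 3 calls in a list. No marker of these 5 lists was at 0. Their part in the type IV values was not tested.

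Among the type VI chains, Col6a3 and Col6a5 departed from Col6a1 and Col6a2. Type VI collagen is assembled from an alpha 1 chain, an alpha 2 chain and a partner that is alpha 3 or one of the alpha 3-like chains encoded by Col6a4, Col6a5 and Col6a6. Col6a1 was at 101 RPKM in M2+GANT61 and 117 RPKM in M2+DMSO, a ratio of 0.869 (0.856 to 0.882), and Col6a2 had a ratio of 0.892 (0.875 to 0.908). These genes lie on chromosome 10, separated by 85161 bases and read in the same direction. Their levels relative to each other were close, 2.17 in M2+GANT61 and 2.23 in M2+DMSO.

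Col6a3 was at 28.7 RPKM in M2+GANT61 and 17.9 RPKM in M2+DMSO, from 22403 and 15351 reads, a ratio of 1.61 (1.57 to 1.64). Col6a5 was at 18.6 RPKM in M2+GANT61 and 5.82 RPKM in M2+DMSO, from 12471 and 4267 reads, a ratio of 3.22 (3.11 to 3.33). Col6a4, beside it on chromosome 9, had 180 reads in M2+GANT61 and 97 in M2+DMSO, at 0.336 and 0.165 RPKM, a ratio of 2.04 (1.59 to 2.64). Its exons share 162 bases with Gm47575 and 127 with Gm36993, both antisense, and the strand setting of the counting is not given. Col6a6, on the other side of Col6a5, had a ratio of 1.29 (1.17 to 1.42). Col6a3 and the genes of the alpha 3-like chains all had ratios above 1, as did 49.0% of all genes considered. Of these 4 collagen genes, 3 were called higher, beside 14.1% of all genes considered. They are too few to set against a background. Relative to Col6a1, Col6a3 was at 0.283 in M2+GANT61 and 0.153 in M2+DMSO, and Col6a5 at 0.184 and 0.0497. The summed type VI reads nevertheless had a ratio of 1.14 (1.13 to 1.15), and the summed RPKM was 197 in M2+GANT61 and 195 in M2+DMSO.

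**Figure D4:**
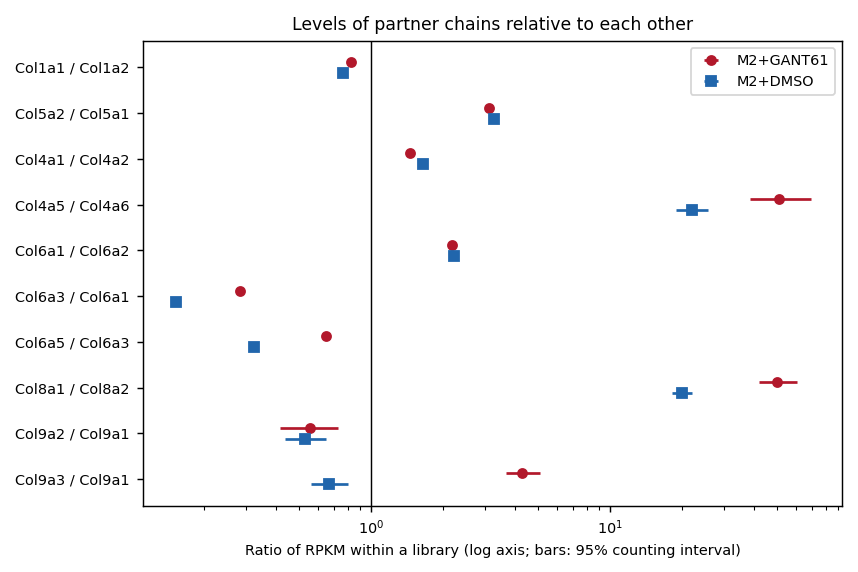
Level of a chain relative to a partner chain within each library, as the ratio of deposited RPKM values (log axis), with 95% counting intervals. Circles are M2+GANT61 and squares M2+DMSO. Col6a1 over Col6a2 and Col9a2 over Col9a1 differ little between the libraries, while Col9a3 over Col9a1 is 4.30 in M2+GANT61 and 0.669 in M2+DMSO.

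The FACITs, which coat the surface of fibrils, had 3 higher and 2 lower of 7 at the floor. Among all genes considered, 14.1% were called higher and 10.3% lower, and nothing is read from counts in so few genes. Col12a1, found along type I fibrils of tendon, dermis and wounds, was the most abundant, at 42.5 RPKM in M2+GANT61 and 20.4 RPKM in M2+DMSO, from 35820 and 18898 reads. Its ratio was 2.09 (2.05 to 2.12), and it made up 4.97% of the collagen reads in M2+GANT61 and 2.69% in M2+DMSO. Col14a1, a close relative also found on type I fibrils, had a smaller ratio of 1.26 (1.22 to 1.30). Col16a1 differed little, at 1.05 (1.01 to 1.09). Col20a1 had 159 reads in M2+GANT61 and 95 in M2+DMSO, at 0.528 and 0.287 RPKM, a ratio of 1.84 (1.42 to 2.40).

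The type IX chains, which form 1 heterotrimer in cartilage, went different ways. Col9a1 had 202 reads in M2+GANT61 and 398 in M2+DMSO, at 0.678 and 1.22 RPKM, a ratio of 0.560 (0.470 to 0.664). Col9a2 had 74 and 140 reads in M2+GANT61 and M2+DMSO, at 0.375 and 0.646 RPKM, a ratio of 0.584 (0.433 to 0.777). Col9a3 had 596 reads in M2+GANT61 and 183 in M2+DMSO, at 2.91 and 0.815 RPKM, a ratio of 3.58 (3.03 to 4.26). Exons of Col9a3 share 234 bases, 6.07% of its exon length, with the antisense gene Tcfl5, which had 35 reads in M2+GANT61 and 9 in M2+DMSO. Col19a1 had 3 and 2 reads, a ratio of 1.52 (0.189 to 19.8). Col22a1 had 0 reads in either library, which allows up to 3 reads, or 0.0528 CPM in M2+GANT61 and 0.0479 CPM in M2+DMSO.

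Collagens of the epithelial attachment were higher in M2+GANT61. Col17a1, a transmembrane collagen of the hemidesmosome that holds basal keratinocytes to the basement membrane, was at 8.55 RPKM in M2+GANT61 and 2.39 RPKM in M2+DMSO, from 3407 and 1043 reads. Its ratio of 3.60 (3.36 to 3.86) was the highest of the 36. Col7a1, the chain of the anchoring fibrils (chr9:108953586-108984875, plus strand), was at 10.3 RPKM in M2+GANT61 and 5.36 RPKM in M2+DMSO, from 6822 and 3893 reads, a ratio of 1.93 (1.86 to 2.01). The laminin subunit genes Lama3 and Lamb3, whose products lie between these collagens in the same attachment, had ratios of 3.36 (3.22 to 3.50) and 2.26 (2.18 to 2.34). Basal and stratified epithelium markers stood beside them with the 7 of 9 higher calls and 0 lower given above, and the keratin gene Krt5 was at 3.13 (3.04 to 3.22). The part of these cells in the values of Col17a1 and Col7a1 was not tested.

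The other transmembrane collagens were scarce. Col23a1 had 464 reads in M2+GANT61 and 185 in M2+DMSO, at 1.14 and 0.414 RPKM, a ratio of 2.76 (2.32 to 3.29). Col25a1, known from neurons and muscle, had 30 reads in M2+GANT61 and 10 in M2+DMSO, below the floor, with a ratio of 3.19 (1.57 to 7.58). Col13a1 had 68 and 74 reads in M2+GANT61 and M2+DMSO and a ratio of 1.01 (0.717 to 1.43).

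Of the short-chain network collagens at the floor, 1 of 2 was called lower, too few genes to set against the 10.3% of all genes considered. Col8a1, a chain of the subendothelial matrix and of Descemet's membrane, was at 19.4 RPKM in M2+GANT61 and 26.3 RPKM in M2+DMSO, a ratio of 0.741 (0.719 to 0.763), short of the threshold. Col8a2, its partner, had 121 reads in M2+GANT61 and 450 in M2+DMSO, at 0.388 and 1.32 RPKM, a ratio of 0.297 (0.240 to 0.363), the lowest of the 36. Col10a1, a marker of hypertrophic cartilage, had 6 reads in M2+GANT61 and 15 in M2+DMSO. Col28a1, known from peripheral nerve, had 333 reads in M2+GANT61 and 626 in M2+DMSO, at 1.09 and 1.88 RPKM, a ratio of 0.586 (0.511 to 0.670). The median log2 ratio of the 6 Schwann and nerve markers was 0.05. Their part in the value of Col28a1 was not tested. Col26a1 had 2 reads in M2+GANT61 and 4 in M2+DMSO, a ratio of 0.603 (0.0498 to 3.84).

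The multiplexins, which carry glycosaminoglycan chains in the basement membrane zone, differed little. Col15a1 had a ratio of 0.908 (0.882 to 0.935) and Col18a1, whose C-terminal fragment is endostatin, of 0.984 (0.954 to 1.02). The level of Col15a1 was 21.9 RPKM in M2+GANT61 and 24.2 RPKM in M2+DMSO, and that of Col18a1 was 18.2 and 18.6 RPKM.

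Promoter windows from RefSeq (GRCm38.p6, the sequence of mm10), from 250 bases before to 50 after a start, matched 35 of the 44 members by symbol. The bases before the start are shown for Col3a1, as the most abundant chain, and for the called chains that reached 50 CPM in a library and had a window. Each is written 5′ to 3′ on the gene's own strand, cut where an annotated exon begins (52 bases are left out for Col17a1), with capitals for matches on either strand to any of 5 short motifs. These were CCAAT as the CCAAT box, TATAAA as the TATA box, GGGCGG as the GC box, GACCACCCA as a GLI consensus and TGANTCA as an AP-1 consensus.
Col3a1 (chr1:45311288-45311537, plus strand): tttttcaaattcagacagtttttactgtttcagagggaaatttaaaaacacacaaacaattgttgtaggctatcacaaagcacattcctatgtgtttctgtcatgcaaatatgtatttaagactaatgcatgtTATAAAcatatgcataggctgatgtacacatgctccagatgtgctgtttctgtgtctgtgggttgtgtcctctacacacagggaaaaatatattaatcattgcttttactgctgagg
Col6a3 (chr1:90843972-90844221, minus strand): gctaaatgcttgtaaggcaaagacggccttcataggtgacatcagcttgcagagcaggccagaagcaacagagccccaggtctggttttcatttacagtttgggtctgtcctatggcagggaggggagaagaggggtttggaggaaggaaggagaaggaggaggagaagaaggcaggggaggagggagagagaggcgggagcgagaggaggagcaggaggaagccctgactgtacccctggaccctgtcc
Col6a5 (chr9:105960644-105960893, minus strand): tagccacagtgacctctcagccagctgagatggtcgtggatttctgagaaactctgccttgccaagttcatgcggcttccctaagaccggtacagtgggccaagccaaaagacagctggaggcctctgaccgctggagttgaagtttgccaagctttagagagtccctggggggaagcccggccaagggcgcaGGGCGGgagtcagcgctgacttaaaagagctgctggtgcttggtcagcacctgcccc
Col7a1 (chr9:108953336-108953585, plus strand): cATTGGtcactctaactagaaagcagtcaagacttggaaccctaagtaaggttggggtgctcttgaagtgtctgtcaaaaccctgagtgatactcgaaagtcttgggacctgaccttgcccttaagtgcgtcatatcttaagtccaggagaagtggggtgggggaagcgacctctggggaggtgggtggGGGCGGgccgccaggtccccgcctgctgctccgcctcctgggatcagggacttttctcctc
Col17a1 (chr19:47692095-47692292, minus strand): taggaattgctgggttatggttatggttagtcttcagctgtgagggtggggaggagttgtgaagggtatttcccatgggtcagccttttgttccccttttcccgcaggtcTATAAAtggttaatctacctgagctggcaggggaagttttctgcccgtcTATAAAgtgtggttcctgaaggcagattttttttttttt

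These windows had little in common. TATAAA stood in Col3a1 once and in Col17a1 in 2 places, GGGCGG once each in Col6a5 and Col7a1, CCAAT once, on the opposite strand, in Col7a1, and no listed motif in Col6a3. Over whole windows, GGGCGG was in 22 of 35 collagen genes (62.9%) and in 38.2% of 27025 genes in the table. CCAAT was in 37.1% of the collagen genes and 41.1% of all genes, and TATAAA in 14.3% and 15.7%. GACCACCCA was in 0 of 35 collagen windows and in 0.289% of all genes, and TGANTCA in 1 collagen window, that of Col6a1, and in 8.97% of all genes. A match is a description of the letters and not a binding site.

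Among 30 genes that modify, cut and cross-link procollagen, 9 were called higher, 1 lower and 20 neither (median log2 ratio 0.33), beside 14.1% higher and 10.3% lower among all genes considered. P4ha1, a catalytic subunit of the prolyl 4-hydroxylase that stabilises the helix, was at 217.6 CPM in M2+GANT61 and 98.8 CPM in M2+DMSO, a ratio of 2.20 (2.13 to 2.27). P4ha3, another catalytic subunit, had a ratio of 2.24 (2.03 to 2.47) and P3h2, a prolyl 3-hydroxylase, of 2.31 (2.14 to 2.51). The lower member was Colgalt2, a collagen galactosyltransferase, with 55 reads in M2+GANT61 and 130 in M2+DMSO, a ratio of 0.468 (0.334 to 0.643).

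For collagen breakdown, 9 of 10 genes reached the floor of 1 CPM. Of these 9, 4 were called higher and 0 lower (median 0.56), against the same 14.1% and 10.3%. Mmp8, a collagenase of neutrophils, had 1215 reads in M2+GANT61 and 134 in M2+DMSO, a ratio of 9.95 (8.35 to 12.03). Mmp13, another collagenase, was at 720.3 CPM in M2+GANT61 and 110.3 CPM in M2+DMSO, a ratio of 6.53 (6.36 to 6.70). Mmp9, a gelatinase, had a ratio of 4.29 (4.19 to 4.39). Ctsk, the cysteine protease cathepsin K, was the other member called. Summed over the list, the level was 2768 CPM in M2+GANT61 and 1265 CPM in M2+DMSO, a ratio of 2.19 (2.17 to 2.21), against 1.13 for the 44 collagen genes. Macrophage markers, 12 of 12 higher with a median of 1.02, stand beside this list, and their part in it was not tested.

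The remaining matrix lists held few calls, to be set against the same 14.1% higher and 10.3% lower, and nothing is read from their counts. Of 10 collagen receptor genes, 8 reached the floor of 1 CPM, and of these 1 was higher and 0 lower (median 0.24). The higher gene was Lair1, an inhibitory collagen receptor of leukocytes, at a ratio of 1.55 (1.48 to 1.63). Among 12 small leucine-rich proteoglycans and other fibril partners, 2 were higher and 3 lower (median -0.30). Fn1, fibronectin, had a ratio of 1.92 (1.91 to 1.93), while Comp, Aspn and Fmod had ratios of 0.388 (0.284 to 0.520), 0.492 (0.460 to 0.525) and 0.533 (0.466 to 0.608). The summed ratio of this list was 1.58 (1.57 to 1.59), opposite in direction to its median. Fn1 was its most abundant member, but not the only abundant one with a ratio above 1. The 16 basement membrane partners of type IV had 2 higher and 2 lower calls, a median of -0.07 and a summed ratio of 1.003 (0.997 to 1.01). The lower members were Lama1 and Lama2, laminin alpha chains, at ratios of 0.565 (0.451 to 0.702) and 0.582 (0.539 to 0.628).

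**Figure D5:**
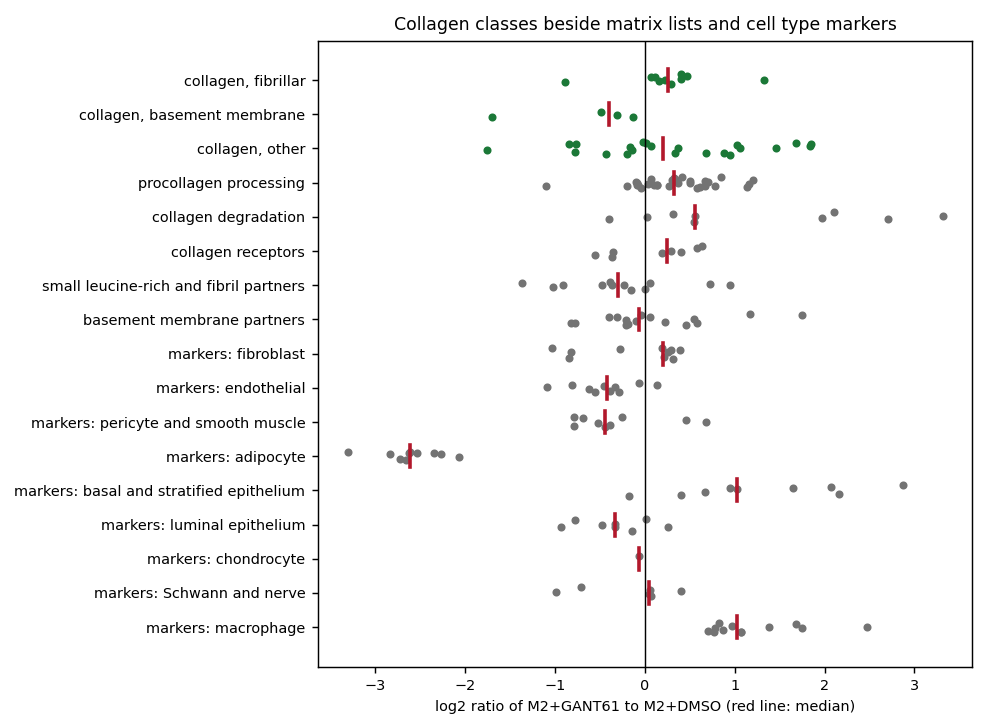
log2 ratio of M2+GANT61 to M2+DMSO for each gene averaging at least 1 CPM in the collagen classes (green), the matrix lists and the cell type marker lists (grey), with red lines at the medians. The collagen class medians of 0.26, -0.40 and 0.20 lie well inside the span of the marker medians, which run from -2.61 for adipocytes to 1.03 for basal and stratified epithelium.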

How the data were processed

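Messenger RNA was measured in 1 M2+GANT61 and 1 M2+DMSO library, columns being tied to samples by the treatment in their names. The authors deposited 1 table of unnormalized estimated counts per gene, 29.3% (M2+GANT61) and 29.5% (M2+DMSO) of them not whole, and 1 of RPKM values. The submitters' total behind RPKM differs from the gene sum. Tools named in the submitters' processing notes are STAR, cutadapt, HISAT2, SAMtools and Partek, with mm10 and hg19 as builds. The counter, annotation and strand setting are not given in the sources used here, so overlapping genes may share reads.

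The expected counts were rounded, scaled by TMM (edgeR 4.0.16, R 4.3.3) and turned into ratios with a prior count of 0.5 per library. Ratios and shares have exact Clopper-Pearson intervals at 95% (scipy 1.17.1), for counting error only. Ratios of summed reads have no prior. The rule of size compares these libraries, not the conditions, and the ratio step was tested on simulated data. A count of 0 allows up to 3 reads. Alternatives were other scalings (DESeq2 1.42.0 size factors, library totals, upper quartile, RPKM), other floors, prior count, rounding, threshold and class limits. Every collagen gene is accounted for, with full values for types I, III and IV and for called members. From each of 5 matrix lists, up to 4 called members farthest from 1 are named, and from collagen breakdown also Mmp14 and Fap. Marker genes named beside a collagen were picked with their values in view. Some markers are not reported here by name. The members, classes and lists were chosen with earlier results of these data known. Gene positions are from GENCODE M21 by symbol. Other tools were Python 3.11.15, numpy 2.4.6, pandas 2.3.3 and, for figures, matplotlib 3.10.9.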

Additional observations from a re-analysis of the deposited data

How the results depend on the processing

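Under 4 other scalings (DESeq2 size factors, library totals, upper quartile, deposited RPKM), each of the 36 collagen genes at the floor kept its call, with 10 higher and 6 lower. The median over all genes moved from -0.01 to at most -0.06 on the log2 scale, with library totals. The summed ratios moved beyond their counting intervals with library totals, to 1.11 for fibrillar, 0.813 for type IV and 1.21 for the other types, and with upper quartile scaling, to 1.11, 0.815 and 1.21. With the deposited RPKM the fibrillar sum was 1.14. A floor of 5 CPM gave 8 higher and 1 lower, with class medians of 0.35, -0.31 and 0.35, since fewer genes are tested. A fold threshold of 2 gave 7 higher and 2 lower. With Col7a1, Col15a1 and Col18a1 counted as basement membrane, that class had a median of -0.14 and a summed ratio of 0.897, and the other types had 0.33 and 1.27. With no floor, 11 members were higher and 6 lower. Unrounded counts and a prior count of 2 left the counts of calls at 10 and 6. No paired analysis was possible because each group has 1 library and the result comes from no test. With 1 library per group, no library could be left out, and depth limits the 8 members below 1 CPM.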
